A study of Mus musculus with 4 samples.

Results

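The transcripts of 7 secreted or fat-associated genes were followed in epididymal white fat during stimulation of its β3-adrenergic receptors: leptin (Lep), adiponectin (Adipoq), resistin (Retn), angiotensinogen (Agt), retinol-binding protein (Rbp4), neuronatin (Nnat) and the natriuretic peptide clearance receptor (Npr3). All 7 had a probe set annotated with their symbol alone, 10 probe sets in all, out of 8251 genes and 12422 probe sets against transcripts on the array. The genes were chosen by their changes on these same 4 arrays, so the changes themselves are a description and carry no test.

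The 4 arrays stand for control mice and for mice given CL 316243, a selective β3-adrenergic agonist, at 3 nmol/hr for 1, 3 or 6 days. All mice were C57 BL6 males of 3 to 4 months, and the RNA hybridized to each array was pooled from several of them; the sources used here give neither the number per pool, nor the route of dosing, nor what the control mice received. Each group had 1 array, so there is no replicate check and no p-value, and precision is limited by the number of arrays. The control array is shared by the comparisons of days 1, 3 and 6, which are therefore not independent of each other.

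Adipokines are proteins that fat cells release into the blood. Leptin reports the size of the fat store to the brain and lowers food intake, and adiponectin, one of the most abundant proteins of plasma, acts on liver and muscle to raise insulin sensitivity. Resistin is made by fat cells in mice, where it opposes insulin action, while in humans it comes mainly from monocytes and macrophages. Angiotensinogen is the precursor that renin and angiotensin-converting enzyme cut into angiotensin II, and retinol-binding protein carries vitamin A in the blood. Neuronatin is a small membrane protein of the endoplasmic reticulum, transcribed from the paternal allele alone, and Npr3 takes up natriuretic peptides, which drive lipolysis in human fat, and removes them. Fat cells sense catecholamines through β-adrenergic receptors, which raise cAMP and start lipolysis; leptin transcripts are known to be lowered by this pathway.

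The array values were scaled intensities, and values under a floor of 174 units (the 40th percentile of all values) were raised to it before a ratio was taken. Where several probe sets read a gene, the brightest on average over the 4 arrays stands for it. A change of at least 2-fold was called. The error of a log2 change, taken from pairs of probe sets of the same gene, was 0.41 for day 1 (794 pairs), 0.31 for day 3 (816 pairs) and 0.31 for day 6 (819 pairs) against control. An interval of 2 errors corresponds to 1.77-fold, 1.54-fold and 1.54-fold. It covers measurement by different probes and holds no variation between mice or pools.

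The bases just before the transcription start are shown for the 3 genes that stayed low to day 6 (Lep, Nnat and Npr3) and for 2 that returned (Rbp4 and Agt), since these sets moved in different ways. Each is the 130 bases upstream of a RefSeq start in GRCm38.p6, 5′ to 3′ on the gene's own strand. Capitals mark matches on either strand to the C/EBP motif (TTGCNNAA), the core of a cAMP response element (TGACG), a nuclear receptor binding unit (AGGTCA), the E-box (CANNTG), the GC box (GGGCGG) and the TATA box (TATAAA).
Lep (chr6:29060091-29060220, + strand): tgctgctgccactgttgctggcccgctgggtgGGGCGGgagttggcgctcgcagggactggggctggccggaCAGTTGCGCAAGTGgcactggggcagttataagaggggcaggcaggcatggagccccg
Nnat (chr2:157559948-157560077, + strand): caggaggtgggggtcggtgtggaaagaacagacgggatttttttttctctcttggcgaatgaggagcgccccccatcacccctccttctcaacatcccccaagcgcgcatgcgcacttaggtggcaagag
Npr3 (chr15:11907372-11907501, - strand): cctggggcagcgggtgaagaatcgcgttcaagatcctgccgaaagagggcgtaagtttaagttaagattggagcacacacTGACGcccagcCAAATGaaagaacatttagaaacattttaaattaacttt
Rbp4 (chr19:38124812-38124941, - strand): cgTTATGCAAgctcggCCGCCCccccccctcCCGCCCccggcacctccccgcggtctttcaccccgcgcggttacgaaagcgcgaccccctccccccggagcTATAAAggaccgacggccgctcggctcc
Agt (chr8:124569707-124569836, - strand): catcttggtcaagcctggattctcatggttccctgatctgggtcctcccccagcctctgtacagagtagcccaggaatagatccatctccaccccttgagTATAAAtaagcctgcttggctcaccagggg

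In the leptin promoter the C/EBP match began 55 bases before the start and read the same on both strands; it overlapped an E-box match on each side, beginning 58 and 50 bases before the start, so that the 3 matches form 1 run of capitals. C/EBP proteins are transcription factors of fat cell differentiation. Over the full window of 250 bases before to 50 bases after the start, C/EBP matches were found in 2 of the 7 genes, Lep and Rbp4, against 10.8% of the 32851 windows in the table. The cAMP response element core was found in Npr3, 50 bases before its start, and in Rbp4, against 20.8% of all windows. E-box matches, held by 72.3% of all windows, were found in 6 of the 7 genes, and Nnat had no match to any of the 6 motifs. GC box matches (35.7% of windows) were in Lep and Rbp4, TATA box matches (13.6%) in Agt and Rbp4, and nuclear receptor units (16.3%) in 0 of the 7. Rbp4 has 2 starts in the table, and its C/EBP, cAMP response element, GC box and TATA box matches lie at the one shown, the cAMP response element 172 bases before it and outside the printed bases. Of the 3 genes that stayed low, Lep and Npr3 shared only the E-box among the motifs searched. A match describes the letters and is not a binding site.

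After 1 day of CL 316243, 6 of the 7 genes were at least 2-fold lower than in control and Retn was within 2-fold. Over all 8251 genes, 6.33% were at least 2-fold lower and 5.71% at least 2-fold higher at day 1. At day 3 the number of lower genes was 4 (Nnat, Npr3, Lep and Agt), where 2.47% of all genes were lower and 2.88% higher, and at day 6 it was 3 (Nnat, Npr3 and Lep), where 1.24% were lower and 1.31% higher. None of the 7 was at least 2-fold higher than control on any day. Because the genes were chosen from these contrasts, nothing is read from the difference between their counts and those shares. The median log2 change of the 7 genes was -1.87, -1.28 and -0.47 on days 1, 3 and 6, against -0.02, 0.00 and 0.00 over the 6254 genes above the floor on at least 1 array.

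The 7 genes are put in 3 groups here by their calls against control. These are lower on all 3 days, lower at day 1 but not at day 6, and not called. Nnat, Lep and Npr3 were at 2.96%, 8.71% and 10.8% of their control level at day 1 and at 9.13%, 26.2% and 23.2% at day 6. Agt, Rbp4 and Adipoq were at 27.3%, 38.9% and 48.8% at day 1 and at 72.0%, 133% and 106% at day 6. Retn stood at 74.3% at day 1 and 108% at day 6.

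**Figure D1:**
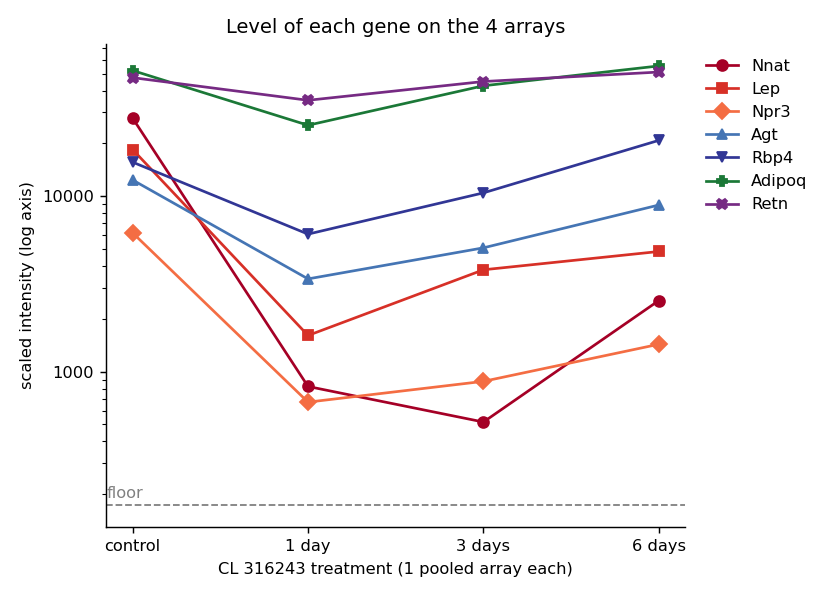
Scaled intensity (log axis) of the 7 genes on the control array and after 1, 3 and 6 days of CL 316243, 1 pooled array each; the dashed line is the floor of 174 units. Nnat, Lep and Npr3 lie far below their control level on every treated day, while Adipoq, Retn and Rbp4 are near or above it at day 6.

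Neuronatin had the deepest change of the 7. Its probe set read 27857 units in control and 823, 516 and 2542 units after 1, 3 and 6 days. All 3 treated arrays were low, day 3 the lowest, and the folds were 33.8, 54.0 and 11.0 below control. Among genes above the floor on both arrays, this was the second deepest fall of 5312 at day 1, the deepest of 5416 at day 3 and the second deepest of 5421 at day 6. Day 3 was 1.59-fold below day 1, which is inside 2 errors (1.76-fold), so those days have no order, whereas day 6 was 4.93-fold above day 3. The name of the probe set carries the suffix used for probe sets that can match more than 1 transcript. In the RefSeq annotation Nnat lies inside the gene Blcap, on chromosome 2, and only 1 probe set reads it.

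Leptin read 18447 units in control and 1607, 3806 and 4839 units after 1, 3 and 6 days with its brighter probe set. The day 1 array was the lowest, 11.5-fold under control, and days 3 and 6 were 4.85-fold and 3.81-fold under it. Its other probe set, whose name carries a suffix for shared probe sets, read 10217 units in control. On the treated days it read 8, 614 and 1412 units. That probe set put the change at no less than 58.8-fold at day 1, where it was below the floor, and at 16.6-fold and 7.24-fold at days 3 and 6. Both probe sets gave the same order, with control highest and day 1 lowest, but the dimmer one gave the larger fold on each day. Their log2 changes were -3.521 and, as a bound, -5.877 at day 1. At day 3 they were -2.277 and -4.056, and at day 6 -1.931 and -2.855. These gaps are past 2 errors on each day, so the error used here understates the uncertainty in the size of the leptin change. With the brighter one, days 6 and 3 differed by 1.27-fold, inside 2 errors (1.56-fold); with the dimmer one they differed by 2.30-fold.

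Npr3, the clearance receptor, was read by 3 probe sets. The brightest gave 6179 units in control and 670, 880 and 1432 units after 1, 3 and 6 days, or 9.22-fold, 7.02-fold and 4.31-fold below control. The next gave 3870 units in control and 499, 465 and 916 units, or 7.76-fold, 8.32-fold and 4.22-fold. These probe sets agreed on the size of the change to within 2 errors. The name of the second carries a suffix for reduced probe sets, so the 2 are not of the same kind. The dimmest read 1165 units in control and was just under the floor on all treated arrays, at 173, 153 and 134 units, so it gives at least 6.70-fold on each day and shows no return at day 6. By the brightest probe set day 6 was 1.63-fold above day 3, past 2 errors (1.56-fold), and days 3 and 1 were not separated (1.31-fold).

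**Figure D2:**
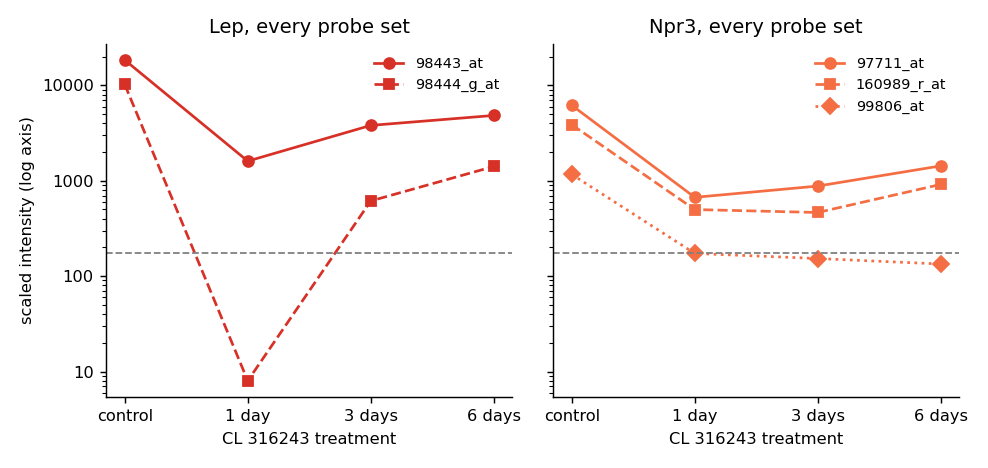
Scaled intensity (log axis) of the 2 probe sets of Lep (left) and the 3 probe sets of Npr3 (right) on the 4 arrays; the dashed line is the floor. Every probe set is highest in control, and 1 of each gene's probe sets drops below the floor at day 1.

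Angiotensinogen read 12371 units in control and 3377, 5077 and 8906 units after 1, 3 and 6 days. It was 3.66-fold lower at day 1 and 2.44-fold lower at day 3, and at day 6 it was 1.39-fold below control, inside 2 errors. Among the members it was the only one that was called lower at days 1 and 3 and not at day 6. Day 6 was 1.75-fold above day 3, and day 3 was 1.5-fold above day 1, inside 2 errors (1.76-fold).

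Rbp4 read 15632 units in control and 6078, 10447 and 20810 units after 1, 3 and 6 days. It was 2.57-fold lower at day 1, 1.5-fold lower at day 3 and 1.33-fold higher at day 6; the last 2 changes were inside 2 errors. Day 6 was 1.99-fold above day 3 and 3.42-fold above day 1.

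Adiponectin read 52042 units in control and 25374, 42596 and 55274 units after 1, 3 and 6 days. Only the day 1 array was low, 2.05-fold below control, just past the 2-fold threshold (log2 change -1.04, or -0.99 and not called when arrays were scaled to a mean of log2 values), and days 3 and 6 were within 1.22-fold and 1.06-fold of control. Resistin read 47394 units in control and 35213, 45047 and 51005 units, with changes of 1.35-fold, 1.05-fold and 1.08-fold that were all inside 2 errors. Both genes were again lowest at day 1. Their probe sets were bright, on arrays whose brightest probe sets read between 61681 and 74188 units, and compression of large intensities was not tested.

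**Figure D3:**
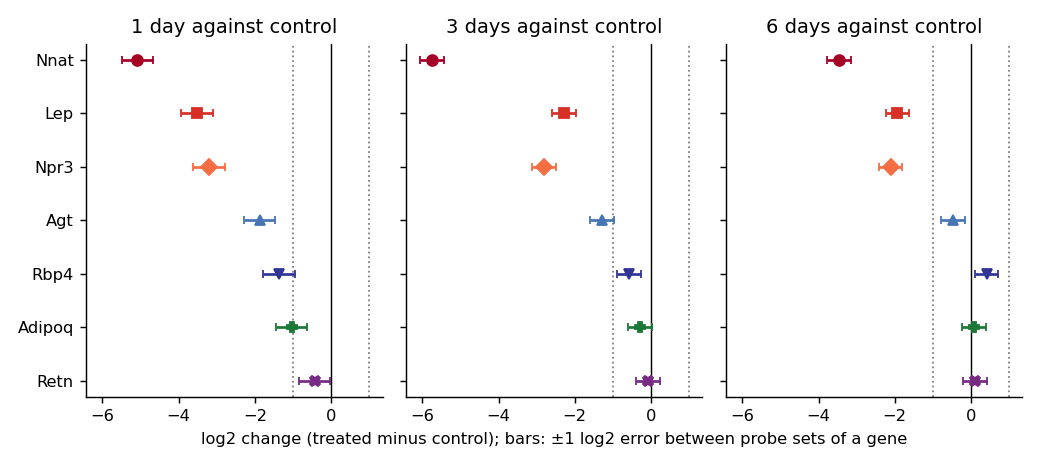
Log2 change of the 7 genes after 1, 3 and 6 days against control (treated minus control, 1 array each); bars are 1 log2 error between probe sets of a gene (0.41, 0.31 and 0.31), and dotted lines mark 2-fold. Nnat, Lep and Npr3 remain beyond the 2-fold line at day 6, and the other 4 genes lie inside it. The bars of Lep do not cover the gap between its 2 probe sets.

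Between treated days the changes ran upward for most of the genes. From day 1 to day 3, 6 of 7 had a higher value and Lep alone was at least 2-fold higher (2.37-fold), where 4.41% of all genes were. The other rises were inside 2 errors (1.76-fold), and the second probe set of Npr3 was 1.07-fold lower. From day 3 to day 6, all 7 had a higher value and Nnat alone was at least 2-fold higher, where 1.14% of all genes were. The rises of Lep by its brighter probe set, Adipoq and Retn were inside 2 errors (1.56-fold). From day 1 to day 6, 6 of 7 were at least 2-fold higher, Rbp4 by 3.42-fold, Nnat by 3.09-fold, Lep by 3.01-fold, Agt by 2.64-fold, Adipoq by 2.18-fold and Npr3 by 2.14-fold, where 6.80% of all genes were. The call for Npr3 rests on its brightest probe set: with the mean over its 3 probe sets the log2 change was 0.66, short of 2-fold. Retn was 1.45-fold higher.

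Markers of the cells in the tissue were read on the same arrays. All 15 fat cell markers measured were above the floor on every array. Their summed level was 302859 units in control and 202253, 320382 and 357842 units after 1, 3 and 6 days, which is 66.8%, 106% and 118% of control. At day 1, 5 of the 15 were at least 2-fold lower, among them Pparg, the nuclear receptor of fat cell differentiation, at 1303 units against 4874 in control, and Slc2a4, the insulin-responsive glucose transporter, at 648 against 4054. At days 3 and 6, 0 of 15 were lower by that much. The day 1 log2 changes of the 15 ran from -2.675 to 0.035, with a median of -0.636, so some markers stayed near control. In bulk tissue, fewer fat cells and less RNA per fat cell cannot be told apart. Nnat, Lep and Npr3 had a lower log2 change than each of the 15 markers on all 3 days. Agt did so at days 3 and 6, and Rbp4 at day 3. Adipoq and Retn lay within the range of the markers on each day. At day 6 Rbp4 had a higher change than 12 of the 15.

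The summed level of 19 macrophage markers was 201%, 218% and 116% of control on days 1, 3 and 6, and 9, 10 and 1 of the 19 were at least 2-fold higher. Of 11 neutrophil markers, 6, 2 and 0 were at least 2-fold higher and 2, 2 and 2 lower. Their sum was 1860%, 122% and 84.5% of control, most of it from the calprotectin subunits S100a8 and S100a9, without which it was 276%, 83.4% and 78.9%. The 12 stromal markers summed to 71.3%, 87.5% and 86.8%, with 4, 0 and 0 lower and none higher.

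Of 11 endothelial markers, 2, 1 and 0 were at least 2-fold lower and none was higher. They summed to 110%, 77.5% and 105% of control, and at day 1 to 82.0% without Eng, a TGF-β co-receptor. The 8 smooth muscle markers summed to 85.6%, 61.3% and 60.1%, with 3, 2 and 1 lower and none higher. Of the 11 mesothelial, epididymal and testis markers, 2, 3 and 3 were lower and 1, 0 and 0 higher, with median log2 changes of -0.32, -0.03 and 0.00. Their sum was 135%, 56.9% and 68.8% of control, but 56.9% at day 1 without Star, the cholesterol carrier of steroid-making cells, which read 7991 units at day 1 against 18 in control. Without Upk3b, another gene of the list, the sum was 72.5% at day 3 and 95.7% at day 6. The part of these cells in the changes of the 7 genes was not tested.

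The labelled tissue lies against the epididymis, and epididymal transcripts differed between the arrays. The list of epididymal genes was drawn up after Gpx5, a glutathione peroxidase of the epididymis, had appeared as the gene most like Nnat. Gpx5 read 6711 units in control and 179, 622 and 302 units after 1, 3 and 6 days. Lcn5, a retinoid-binding lipocalin of the epididymis, read 3321 units in control and 63, 7 and 8029 units, and Adam7, an epididymal membrane protein, 2654 units in control and 200, 251 and 1846. The 4 listed genes above the floor on at least 1 array summed to 13291 units in control and to 6.05%, 8.89% and 80.2% of that on days 1, 3 and 6. The day 6 sum was mostly Lcn5: without it the other 3 were at 7.44%, 11.8% and 26.4% of control, and without Gpx5 the sum at day 6 was 157%. At day 6 Gpx5 was 22.2-fold below control, Adam7 1.44-fold and Adam28, another membrane protein of the family of Adam7, 1.26-fold below it, while Lcn5 was 2.42-fold above it. On the same array Nnat was 11.0-fold, Npr3 4.31-fold and Lep 3.81-fold below control. The part of epididymal transcripts in the low values of Nnat, Lep and Npr3 was not tested on any day.

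**Figure D4:**
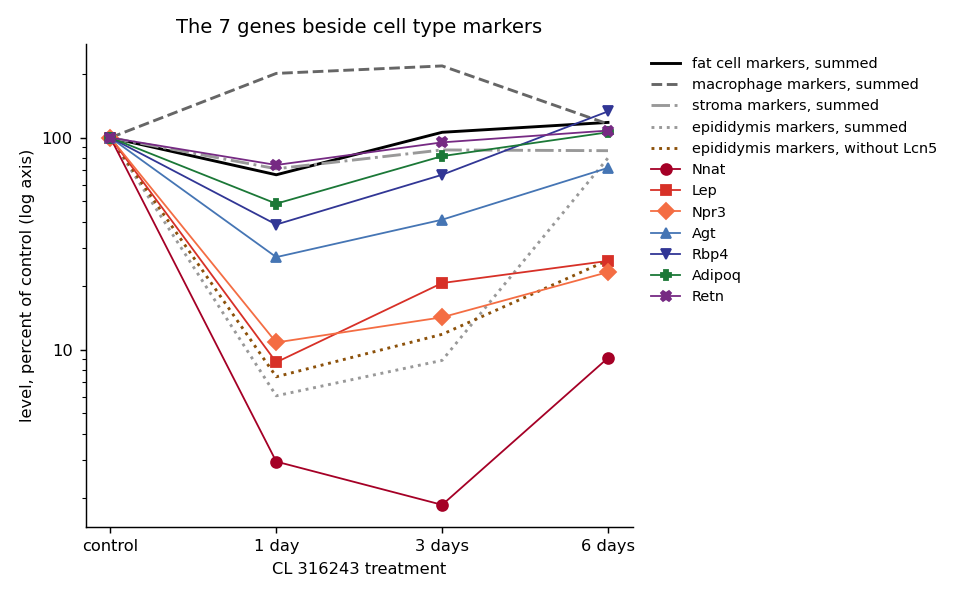
Level of the 7 genes and summed level of 4 marker lists (15 fat cell, 19 macrophage, 12 stroma and 4 epididymis genes, the last also without Lcn5) as percent of the control array, on a log axis. Nnat, Lep and Npr3 lie under the summed fat cell markers on each treated day; the epididymis markers are low on days 1 and 3 and at 80.2% at day 6, or 26.4% without Lcn5.

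Of 8 genes of leptin receptor signalling above the floor, 4 were at least 2-fold higher at day 1 and 0 lower. With a floor at the 60th percentile 2 were higher. Over all 8251 genes the share that was higher was 5.71%. It counts genes that stayed under the floor throughout and cannot be called, so it is not like for like with the 8. The transcription factor Stat3 was 1.99-fold higher, Irs2 and Sh2b1 had log2 changes of 0.21 and 0.22, and Leprot -0.17, all 3 inside 1 error. The median log2 change of the 8 was 1.00. Socs3, which shuts off cytokine and leptin receptor signalling, read 2919 units at day 1 against 285 in control, or 10.2-fold higher, and its other probe set 3307 against 105. The phosphatases Ptpn1 and Ptpn2, which dephosphorylate JAK kinases, were each 2.25-fold higher, and the kinase Jak2 read 870 units against 433. At days 3 and 6 the medians were 0.07 and -0.05; the insulin receptor substrate Irs2 was at least 2.60-fold lower at day 3, and 0 genes passed 2-fold at day 6. The leptin receptor, Lepr, was below the floor on all 4 arrays with both of its probe sets.

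Adipor2, 1 of the receptors of adiponectin, read 9872 units in control and 10986, 10374 and 12173 units on days 1, 3 and 6, and the other receptor, Adipor1, 274 in control and 441, 404 and 313. None of these receptor changes passed 2-fold. Cdh13, which binds adiponectin at the cell surface, was below the floor on all arrays. Of the 6 genes on the list above the floor, 1 was at least 2-fold lower at day 1 (Gstk1, known to promote adiponectin assembly, 3.51-fold) and 0 at days 3 and 6. Erp44 and Ero1a, which retain and release adiponectin in the secretory pathway, had log2 changes of 0.85 and 0.81 at day 1, short of 2-fold but past 1 error. The other, dimmer probe set of Ero1a was past 2-fold, at 1579 units at day 1 against 641 in control. Stk11, a kinase upstream of AMPK, was 1.84-fold below control at day 3.

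In the angiotensin system, Enpep, the aminopeptidase that degrades angiotensin II, was lower together with its precursor's gene. It read 6389 units in control and 1937, 3026 and 3425 units after 1, 3 and 6 days, or 3.30-fold, 2.11-fold and 1.87-fold lower. Its other, dimmer probe set did not show this, at 525 units in control and 516, 708 and 775 units. Ace, the converting enzyme, read 519 units in control and 367, 375 and 489 units, inside 2-fold throughout. Atp6ap2, the prorenin receptor, was 2.07-fold higher at day 1. The aminopeptidase Anpep was 2.72-fold higher at day 3 and 2.05-fold higher at day 6, and the peptidase Mme was 2.29-fold higher at day 6. In all, 1, 1 and 2 of 9 genes were at least 2-fold higher and 1, 1 and 0 lower on days 1, 3 and 6. The receptor Agtr2 was below the floor on all arrays, and Ren1 and Agtr1a were not analysed here.

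Among 14 genes of retinoid handling above the floor, 1, 1 and 1 were at least 2-fold higher and 3, 0 and 0 lower on days 1, 3 and 6. The 3 that were lower at day 1 were Aldh1a1 and its close relative Aldh1a7 and the retinal reductase Dhrs3. Aldh1a1, which turns retinal into retinoic acid, read 18700 units in control and 5276, 10357 and 13062 units on days 1, 3 and 6, or 3.54-fold lower at day 1 and 1.43-fold lower at day 6; its other probe set stayed near or under the floor. Retsat, which saturates retinol, took a different course: it read 1956 units in control and 981, 6772 and 4797 units, 3.46-fold higher at day 3 and 2.45-fold higher at day 6. Aldh1a2, another retinal dehydrogenase, was above the floor at day 1 only, at least 4.19-fold higher. Neither Stra6, the receptor for retinol-binding protein, nor Ttr, its carrier partner in plasma, was above the floor on any array.

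The natriuretic peptide list was mostly unread in this tissue. Npr1, the signalling receptor that Npr3 competes with, was below the floor on all 4 arrays, and so were Nppc and Corin; Npr2 was not analysed here. Nppa, which encodes the atrial natriuretic peptide, read 221 units in control and 531, 464 and 518 units on days 1, 3 and 6, 2.40-fold, 2.10-fold and 2.34-fold higher at levels near the floor. It was the only 1 of 3 list genes above the floor that passed 2-fold.

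Other imprinted genes were compared with neuronatin. Imprinting, the silencing of 1 parental allele, is a property that many regulators of fetal growth share, and in mice several imprinted genes, Mest among them, have been studied for their link to fat mass. The list held 24 genes above the floor and known to be imprinted in at least some mouse tissues. Of these, 8 were at least 2-fold lower at day 1, and 1, the protease inhibitor gene Tfpi2, was higher. Of the same 24, 2 were lower and 1 higher than control at day 3, and 2 lower and 0 higher at day 6. Over all 8251 genes, 6.33% were lower at day 1. That share includes genes under the floor throughout, which cannot be called and which the list leaves out, so the 2 are not like for like. The median log2 changes of the 24 were -0.46, -0.47 and -0.21. They were -0.02, 0.00 and 0.00 over all genes above the floor on at least 1 array. The day 3 median of the list was 0.00 when list genes under the floor on all arrays were kept. Mest, which encodes a hydrolase-like protein of growing fat cells, read 1784 units in control and 308, 381 and 677 units, or 5.80-fold, 4.68-fold and 2.63-fold lower. The zinc finger genes Peg3 and Plagl1 were at least 5.17-fold and at least 5.07-fold lower at day 1, as both were under the floor there. At day 6 Plagl1 was 2.25-fold lower by this probe set, while its other one read 363 units against 391 in control. The cell cycle inhibitor Cdkn1c was 3.45-fold lower at day 1 and 2.06-fold at day 3. Blcap, in whose span Nnat lies, read 1983 units in control and 1395, 1099 and 1483 units, a fold of 1.80 at most. Dlk1, a paternally expressed inhibitor of fat cell differentiation, had log2 changes of 0.52, 0.24 and 0.11.

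**Figure D5:**
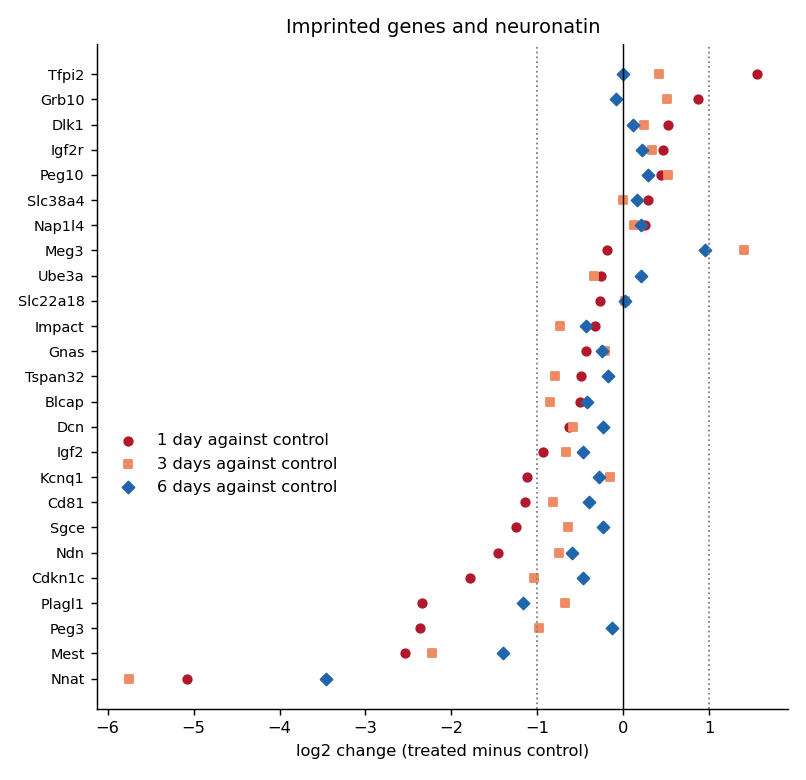
Log2 change (treated minus control) of 24 imprinted genes and of Nnat after 1, 3 and 6 days, sorted by the day 1 value; dotted lines mark 2-fold. Nnat stands furthest left on each day, followed by Mest.

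For each member, the genes with the most similar course were found by the Euclidean distance between the 3 log2 changes against control, over 5290 other genes that reached at least 2 times the floor. The course of Nnat had no close match: Gpx5 was nearest at a distance of 2.54, and Gm8096, at 3.42, next. Gm8096 was under the floor at days 1 and 3, so its changes there are bounds. Leptin was closest to Hpgd, which inactivates prostaglandins, at 0.40. Hpgd read 2541 units in control and 159, 557 and 754 units after 1, 3 and 6 days. It was under the floor at day 1, so that distance rests on a bound. The next for leptin, Eepd1 at 0.55, was also the nearest to Npr3, at 0.34. Eepd1 read 3497 units in control and 424, 614 and 838 units. Within the members, Lep and Npr3 lay 0.65 apart, against 4.10 between Lep and Nnat and 3.74 between Nnat and Npr3. The distances did not follow the groups made by calls: Lep lay nearer to Agt (2.413) than to Nnat. Adipoq lay 0.546 from Rbp4, 0.645 from Retn and 1.417 from Agt.

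Agt was closest to Tmem43 (0.24) and to the imprinted gene Cdkn1c (0.26), which read 1579 units in control and 458, 767 and 1137 units. Rbp4 was closest to Dgcr6 (0.17), whose other probe set took a different course, and to Cpq (0.18). The nearest to Adipoq were Lppos (0.05), which was under the floor at day 1, and Wdr6 (0.08), and the nearest to Retn were Mrpl36 and Marchf6 (both 0.06). Small distances for Adipoq and Retn go with small changes, which many genes share. Each distance rests on 4 arrays and is a description.

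Of 27 other genes for proteins secreted by fat and above the floor, 6 were at least 2-fold higher and 3 lower at day 1. The counts were 5 and 1 at day 3 and 1 and 1 at day 6. Over all 8251 genes, those under the floor on every array included, 5.71% were higher and 6.33% lower at day 1. The shares were 2.88% and 2.47% at day 3 and 1.31% and 1.24% at day 6. The 3 genes lower at day 1 were Vegfb, Orm1 and Rarres2, at 4.29-fold, 3.07-fold and 2.16-fold. Rarres2 was 1.94-fold lower at day 3. The antagonist Il1rn, under the floor in control, was at least 54.9-fold higher at day 1. The acute phase protein Saa3 and the chemokine Ccl2 were 21.5-fold and 15.0-fold higher, and the cytokine Il6 was at least 13.7-fold higher and under the floor on the other 3 arrays. The list's median log2 change at day 1 was -0.12.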

How the data were processed

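RNA from pooled epididymal fat was measured on 1 expression array per group, 4 in all. The deposited values are linear intensities per probe set, whole numbers of which 12.1% to 12.4% per array are at or below 0; the sources used here do not state the authors' software or normalization, and the deposited columns already share their quartiles. Titles of 2 arrays write the compound as CL 316234 and the descriptions CL 316243, which is used here.

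Arrays were multiplied to a shared mean between their 2nd and 98th percentiles (factors 0.999 to 1.001), 66 control probe sets were dropped, and values were floored at the 40th percentile and put on the log2 scale (Python 3.11.15, pandas 2.3.3). Between 59.9% and 60.1% of probe sets per array lay above the floor. Where the dimmer value was under the floor, the fold is a lower bound. Symbols come from the array's annotation: 10833 probe sets had 1 symbol, 396 several and 1193 none here. Partner genes named are the 4 or fewer of each list that changed most past 2-fold, receptors and binding partners, and the 2 genes most like each member; Jak2, Dhrs3, Erp44, Ero1a, Tfpi2, Dlk1, Agtr2, Nppc, Corin, Stat3, Sh2b1, Leprot, Stk11, Eng, Pltp, Lcn2, Cebpd, Lcn5, Adam7 and Adam28 were named after their values were seen. So were Vegfb, Orm1 and Rarres2. The members and lists were chosen with earlier results of these data known. The steps were tested on simulated data, where the check required the right size for rises but only the right direction for falls. Promoter sequences are from RefSeq, GRCm38.p6, which is not a build given for the arrays; all 7 members matched by gene identifier.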

Additional observations from a re-analysis of the deposited data

Results flagged for a closer look

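Some genes lay on opposite sides of control on different treated days. With 1 array per day the differences between days were not tested. Among the 7 members, Rbp4 alone did so by more than 1 log2 error between probe sets each time, with log2 changes of -1.36, -0.58 and 0.41 on days 1, 3 and 6.

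Of 221 genes on the lists, 24 did so by more than 1 error and 7 by more than 2 errors; these 7 follow, without the days inside 2 errors. Retsat had -0.99 at day 1, 1.79 at day 3 and 1.29 at day 6. Pltp, the phospholipid transfer protein, had -0.96 at day 1 and 1.04 at day 3. The lipocalin Lcn2 had 1.43 at day 1 and -1.81 at day 6, and Ccl2 had 3.91, 1.61 and -0.67 on days 1, 3 and 6. The transcription factor Cebpd had 0.97 at day 1 and -0.78 at day 3. Among cell type markers, the gelatinase Mmp9 had 3.65 at day 1 and -1.02 at days 3 and 6, and Lcn5 had -4.26 at days 1 and 3 and 1.27 at day 6; the negative values of both are against the floor.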

How the results depend on the processing

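Under 6 other settings (no scaling, quantile normalization, scaling to a mean of log2 values, floors at the 25th and 60th percentiles, and the mean over all probe sets of a gene), 247 of 252 log2 changes of the members moved by less than the error between probe sets, and 0 reversed. The other 5 were those of Lep with the mean over its 2 probe sets: -4.70, -3.17 and -2.39 on days 1, 3 and 6 against control, 0.77 for day 6 over day 3 and 2.31 for day 6 over day 1. Most of these settings had little room to move the members. The largest shift was 0.002 without scaling, 0.043 and 0.092 with the other scalings, and 0.0 and 0.058 with the other floors. The mean over probe sets could change only Lep and Npr3, since every other member has 1 probe set. The counts of members past 2-fold against control stayed within 1.5 times in every setting, thresholds of 1.5-fold and 3-fold included, but the day 1 count was 5 in place of 6 with scaling to a mean of log2 values, where Adipoq lost its call (-0.99). Between treated days, the number higher at day 3 than at day 1 was 4 with 1.5-fold and 0 with 3-fold as the threshold, against 1, and with 1.5-fold 1 was lower. For day 6 over day 3 it was 4 with 1.5-fold and 2 with quantile normalization, which carried Rbp4 past 2-fold, against 1. For day 6 over day 1 it was 3 with 3-fold and 5 with the mean over all probe sets, where Npr3 lost its call (0.66), against 6. Of 336 list medians, 12 moved by more than the error. At day 1 the neutrophil median of 1.78 was 0.96 and 0.55 with floors at the 25th and 60th percentiles, the epididymal one of -3.99 was -4.48 and -2.47, and with all measured genes kept the retinoid median of -0.46 and the natriuretic peptide one of 0.72 were 0.00, and the neutrophil one was 0.77. At day 3 the imprinted median of -0.47 was 0.00 with all measured genes, the mesothelial, epididymal and testis one of -0.03 was -0.37 with either floor, and the epididymal one of -3.42 was -2.47 with the 60th percentile. At day 6 the natriuretic peptide median of 0.24 was -0.41 with that floor. Of 864 recomputed counts of list genes, 128 moved by over 1.5 times, many of them counts of 0 to 2; with the 60th percentile floor the 8 imprinted genes lower at day 1 became 5. Leaving out single marker genes, chosen after seeing the data, moved 17 of 276 summed levels by more than the error; beside those given with the markers, at day 1 the mesothelial, epididymal and testis sum was 236% of control without Upk3b, against 135%, and the epididymal sum 9.51% without Gpx5 and 3.48% without Adam28, against 6.05%. The neutrophil sum at day 1 was between 983% and 2540% with 1 gene left out, against 1860%. No paired analysis was possible because each group has 1 array. Probe sets near the floor, such as the dimmest of Npr3 and the dimmer of Lep at day 1, give only a bound.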
